A study of Mus musculus with 207 samples.

Results

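SR proteins and hnRNPs are the main families of RNA-binding proteins that choose splice sites, and their mRNAs were followed here in single islet cells of young and old male mice. The members are the protein-coding rows of the expression table whose mouse symbol starts with Srsf and a digit or with Hnrnp, pseudogene names left out. There were 31 of them, 11 SR proteins and 20 hnRNPs, among 44448 rows. The names chose them, no measured value did.

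The study captured islet cells 1 by 1 on a Fluidigm C1 chip, made cDNA with the SMARTer kit and sequenced Nextera XT libraries. The young group holds 138 cells of mice aged 3 months and the old group 69 cells of mice aged 26 months; all mice were male, and the labels give neither a strain nor a genotype nor the animal of any cell. Every cell is labelled a beta cell, the insulin-making islet cell. Since no animal is named, each age is 1 sample: the cells are not replicates and no test of an age difference could be made. The SDs given below are the spread between cells, not the uncertainty of a mean.

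Levels are TPM, a unit of transcript abundance divided by transcript length and scaled to the same total in every cell, so the read depth behind a value is unknown. Cells had 1604 to 6654 genes at 1 TPM or above, the level taken here as detected, with a median of 4292 in young and 4078 in old cells. Of 10 beta cell markers, 9 had a median above 0. The summed acinar, endothelial, macrophage and stellate cell markers had a median of 0 TPM at both ages, but reached 13725 TPM for macrophage markers in 1 young cell. Summed alpha, delta, PP and ductal cell markers had medians above 0 at both ages. In young and old cells these were 949 and 927 TPM for alpha and 51.0 and 98.3 TPM for delta markers. They were 22.2 and 47.8 TPM for PP and 40.4 and 59.0 TPM for ductal markers. Among the alpha markers, Ttr had means of 910 and 962 TPM and Gcg 86.6 and 30.6 TPM. Within each age, runs of consecutive cell numbers in the titles differed from each other, and these 8 stretches (young cells 1 to 39, 40 to 54, 55 to 86 and 87 to 138, old cells 139 to 158, 159 to 190, 191 to 199 and 200 to 207) had been marked out in an earlier look at the same data. Young cells 1 to 54 and old cells 159 to 190 and 200 to 207, here called rRNA-low, had 0.252% to 0.398% of their TPM in mitochondrial rRNA and tRNA as stretch means, against 0.987% to 2.72% in the rRNA-high rest; 54 of 138 young cells and 40 of 69 old cells were in rRNA-low stretches. Single cells overlapped in this share, at 0.0982% to 1.51% in young rRNA-low and 0.143% to 4.11% in young rRNA-high stretches. In old cells the ranges were 0.0328% to 1.45% and 0.474% to 6.06%. A cell is called rRNA-low or rRNA-high by its stretch, not by its own share. The labels do not say what a stretch is, and every stretch holds 1 age only. Old cell 200 carries the features of the rRNA-high kind and is therefore also counted there where that alters a value.

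SR proteins carry RNA recognition motifs and a tail rich in arginine and serine; they bind exonic enhancers, recruit the spliceosome to nearby splice sites and, when phosphorylated by SRPK and CLK kinases, move between nuclear speckles, sites of transcription and, for some, the cytoplasm. The hnRNPs coat nascent RNA, often oppose SR proteins at silencer elements, and take part in export, stability and translation of mRNA. Many genes of both families control their own level through poison exons, whose inclusion sends the transcript to nonsense-mediated decay. In beta cells alternative splicing acts on transcripts of secretion, survival and ion channels.

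Such decay-prone transcripts are on record for most members. In GENCODE M21, 9 of 11 SR genes and 10 of 20 hnRNP genes had at least 1 transcript annotated as a nonsense-mediated decay target, 61.3% of the members, against 30.6% of 9659 protein-coding genes with a mean of 1 TPM or above. The members also had more annotated transcripts, a median of 7 against 5 per gene. Hnrnpk had 34 of them, 3 of these decay targets. The deposited values are 1 per gene, so a productive and a decay-bound transcript of the same member cannot be told apart in what follows.

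The promoters of the members were rich in CpG. RefSeq promoter sequences of GRCm38.p6, from 250 bases before to 50 after the first listed start, were found for 29 of the 31 members (Hnrnpll and Hnrnpul2 had no entry). They held a median of 31 CpG dinucleotides in 300 bases (range 7 to 52), against 21 for 8024 protein-coding genes with a mean of 1 TPM or above and 7 for all 27025 promoters. Searched on both strands, the GC box GGGCGG was in 23 of 29 (65.9% of those genes and 35.9% of all promoters), CCAAT in 16 (39.1% and 37.9%) and TCTCGCGA in 3 (2.64% and 1.08%). The TATA element TATAAA was in 4 (6.52% and 14.2%), the E-box CACGTG in 4 (10.8% and 7.24%), the ETS core CCGGAAG in 6 (20.5% and 9.12%) and TGACGTCA in 0 (3.83% and 1.88%). Overlapping GC boxes are merged in what is printed.

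The 4 promoters below belong to the members on which the results turn: Hnrnpa2b1, the highest (chr6:51469845-51470144, minus strand); Srsf2, which followed the stretches (chr11:116853045-116853344, minus strand); Hnrnpm, lowest in old against young cells (chr17:33685409-33685708, minus strand); and Srsf9, higher in old cells by mean in both kinds of stretches (chr5:115326927-115327226, plus strand). Each runs 5′ to 3′ on the strand of its gene, and capitals mark matches of the 7 motifs.
Hnrnpa2b1: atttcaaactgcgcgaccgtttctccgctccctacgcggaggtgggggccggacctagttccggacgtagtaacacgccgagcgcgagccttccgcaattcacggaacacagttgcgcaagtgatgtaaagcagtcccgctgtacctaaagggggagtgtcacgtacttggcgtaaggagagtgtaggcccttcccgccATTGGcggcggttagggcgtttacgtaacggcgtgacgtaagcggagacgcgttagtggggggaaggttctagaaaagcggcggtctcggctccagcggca
Srsf2: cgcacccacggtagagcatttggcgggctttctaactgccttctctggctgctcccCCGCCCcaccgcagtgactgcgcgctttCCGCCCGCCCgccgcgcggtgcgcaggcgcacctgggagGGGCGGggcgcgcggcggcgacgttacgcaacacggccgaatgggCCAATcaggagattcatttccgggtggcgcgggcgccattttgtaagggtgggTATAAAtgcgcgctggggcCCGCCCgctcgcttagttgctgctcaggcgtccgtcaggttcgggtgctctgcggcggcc
Hnrnpm: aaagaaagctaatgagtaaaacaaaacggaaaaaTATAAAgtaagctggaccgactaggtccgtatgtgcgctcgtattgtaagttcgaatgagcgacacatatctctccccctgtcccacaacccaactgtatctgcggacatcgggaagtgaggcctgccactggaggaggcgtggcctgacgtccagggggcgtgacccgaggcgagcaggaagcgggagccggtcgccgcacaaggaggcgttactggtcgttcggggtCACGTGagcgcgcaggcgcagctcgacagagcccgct
Srsf9: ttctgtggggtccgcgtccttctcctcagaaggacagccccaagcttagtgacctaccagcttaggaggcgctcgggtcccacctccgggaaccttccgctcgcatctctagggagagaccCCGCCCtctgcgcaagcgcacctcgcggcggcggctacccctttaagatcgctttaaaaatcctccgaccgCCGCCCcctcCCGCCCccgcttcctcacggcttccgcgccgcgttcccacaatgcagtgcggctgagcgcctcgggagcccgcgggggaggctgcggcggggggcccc
Srsf2 carried the TATA element, the CCAAT box and several GC boxes, Srsf9 GC boxes only, Hnrnpm the TATA element and an E-box, and Hnrnpa2b1 a single CCAAT box on the opposite strand. The TATA match of Hnrnpm lies far upstream of its start.

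All 31 members were measured at a mean of 1 TPM or above over the 207 cells, and 25 at 10 TPM or above. Their levels spanned from 114 TPM for Hnrnpa2b1 to 1.52 TPM for Srsf12. The next highest means were those of Srsf7 (105 TPM), Srsf5 (103), Srsf3 (103), Hnrnpk (102) and Hnrnph1 (102), which lay closer together than their spread between cells. The SD exceeded the mean in 30 of 31 members in young and in all 31 in old cells, Hnrnpa2b1 in young cells being the exception. Together the members summed to 1402 ± 659.6 TPM per young and 1183 ± 715 TPM per old cell, 0.14% and 0.118% of the total, while Ins1 and Ins2 made up a mean of 53.7%.

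Detection was uneven as well. Of the 31 members, 24 were detected in at least 50% of all cells and 5 in at least 90%, while Srsf12, a low-level relative of Srsf10, was detected in 6 of 207 cells. A median of 21 members per young and 20 per old cell were detected, from 9 to 30. The leading member differed between cells, but was mostly among those with the highest means. In all, 22 different members were the highest in at least 1 cell. Hnrnpa2b1 led in 26 cells, Hnrnph1 and Srsf7 in 25 each, Srsf5 in 22, Hnrnpk in 21, Srsf3 in 19 and Srsf2 in 15. The leading member held a median of 23.9% of the members' summed TPM in its cell (range 8.66% to 80.8%).

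**Figure D1:**
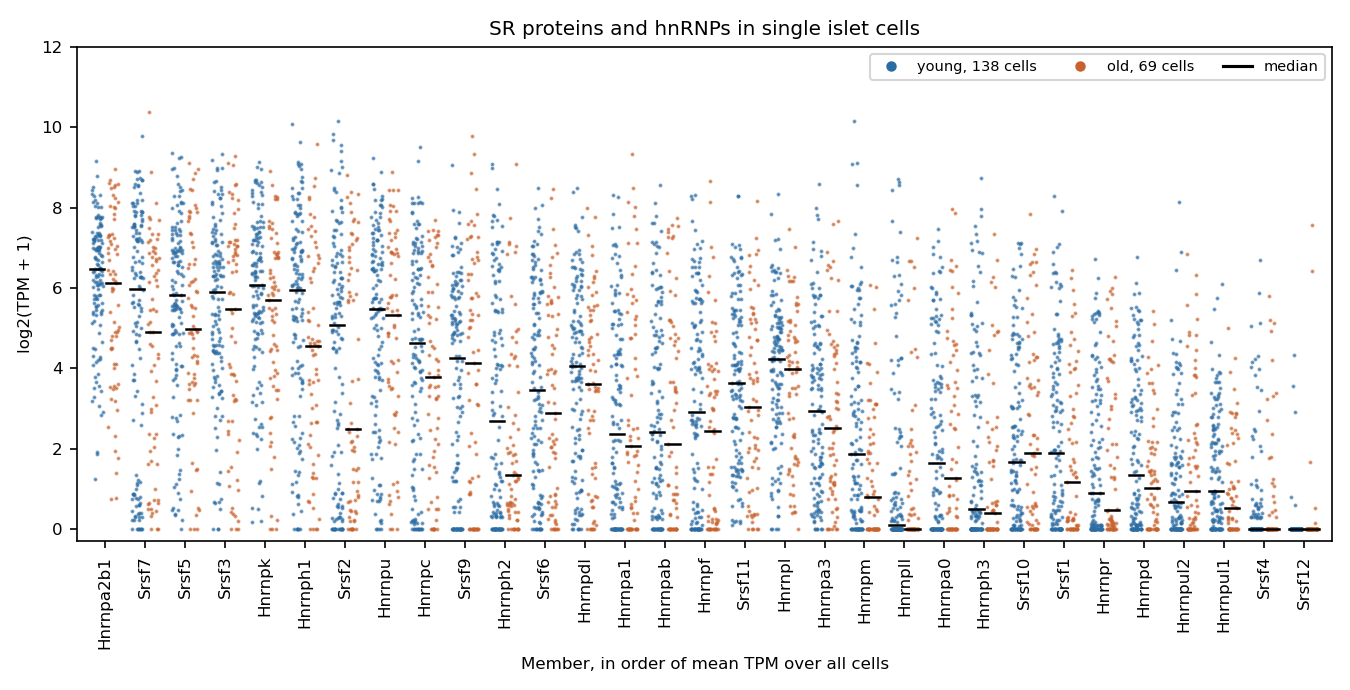
Level of the 31 members in every cell as log2(TPM + 1), in order of mean TPM, with young cells (138) in blue, old cells (69) in orange and the median of each age as a bar. Values of nearly every member run from 0 to over 100 TPM, and the ages overlap throughout.

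Reads of some members cannot be assigned with certainty. Of the 50-base words in a member's longest GENCODE transcript, other annotated genes, many of them unnamed Gm gene models, shared 67.3% for Hnrnpf, 65.4% for Srsf4, 46.4% for Hnrnpa1 and 37.8% for Hnrnpk. For Srsf2, Srsf3, Srsf5, Hnrnpa3, Hnrnpab and Hnrnpm the share was 27.8% to 35.2%, and for Srsf6, Srsf9, Srsf11, Srsf12, Hnrnpa0, Hnrnpll and Hnrnpu it was 0%. How the authors counted such reads, and whether by strand, is not given in the sources used here, so the levels of the members with shared words are uncertain. The pseudogene row Srsf3-ps had a mean of 2.18 TPM at 3 months and 3.19 TPM at 26 months.

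The age comparison asks whether the splicing factor mRNAs differed between 3 and 26 months. The log2 ratio used below is that of the mean TPM of old over young cells, with 1 TPM added to each mean, which understates differences of low genes. Hnrnpm was much lower in old cells, 5.21 against 32.4 TPM, and Srsf9 and Hnrnpa1 were higher by mean, 75.1 against 38.2 and 43.8 against 26.4 TPM. Stretches within an age mostly lay further apart than the 2 ages: for 28 of 31 members the age ratio was smaller than the ratio of the highest to the lowest young stretch mean, as for 95.4% of the genes compared, and for 29 smaller than the same ratio over the old stretches, as for 91.3%. Hnrnpm was an exception to both. At least 1.5-fold higher in old cells were 3 of 31 members (Srsf9, Srsf12 and Hnrnpa1), against 15.7% of 9855 protein-coding genes with a mean of 1 TPM or above. At least 1.5-fold lower were 10 of 31 (Srsf1, Srsf2, Hnrnpc, Hnrnpd, Hnrnph1, Hnrnph2, Hnrnph3, Hnrnpll, Hnrnpm and Hnrnpul1), against 28.4% of those genes. The share lower, 32.3%, is near the background.

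By family, the median log2 ratio was -0.16 over the 11 SR proteins and -0.36 over the 20 hnRNPs, against -0.16 over all genes compared. Of the SR proteins 2 were 1.5-fold higher (18.2%) and 2 lower (18.2%), of the hnRNPs 1 higher (5%) and 8 lower (40%). Of all genes compared 15.7% were higher and 28.4% lower. The SR proteins summed to 566 ± 368 TPM per young and 519 ± 346 TPM per old cell, the hnRNPs to 835 ± 454 and 664 ± 477 TPM. These differences are log2 ratios of -0.12 and -0.33, with each age 1 sample. As a share of the TPM outside insulin and the mitochondrial genome, the members together held 0.401% at 3 months and 0.346% at 26 months, a log2 ratio of -0.21.

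The 2 kinds of stretches gave different age ratios. In the rRNA-low stretches 5 SR proteins (Srsf3, Srsf4, Srsf9, Srsf11 and Srsf12) and no hnRNP were at least 1.5-fold higher in old cells, where 22.7% of all genes compared were. At least 1.5-fold lower there were 2 SR proteins (Srsf1 and Srsf5) and 8 hnRNPs (Hnrnpc, Hnrnpd, Hnrnph1, Hnrnph3, Hnrnpk, Hnrnpll, Hnrnpm and Hnrnpul1), against 35.6%. In the rRNA-high stretches 3 SR proteins (Srsf9, Srsf10 and Srsf12) and 4 hnRNPs (Hnrnpa0, Hnrnpa1, Hnrnpr and Hnrnpul2) were higher, against 19.7%, and 5 SR proteins (Srsf1, Srsf4, Srsf6, Srsf7 and Srsf11) and 5 hnRNPs (Hnrnpd, Hnrnpf, Hnrnph2, Hnrnpll and Hnrnpm) lower, against 34.7%. The family medians crossed: the SR median was 0.32 in rRNA-low and -0.49 in rRNA-high stretches, the hnRNP median -0.40 and -0.091, while all genes compared had -0.18 and -0.19. With cell 200 counted as rRNA-high the SR medians were 0.33 and -0.36, and Srsf6 no longer differed 1.5-fold. With the highest cell of each age left out gene by gene, 4 members were higher in the rRNA-low and 2 in the rRNA-high stretches, and 10 and 11 lower. The share of all genes so called within each kind was not computed. The ratios of 17 of 31 members had opposite signs in the 2 kinds, as had those of 49.4% of all genes compared.

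Few members kept a 1.5-fold difference in both kinds, at shares near those of all genes compared. Srsf9 and Srsf12 were higher in both, 6.45% of the members against 4.88% of genes. Srsf1, Hnrnpd, Hnrnpll and Hnrnpm were lower in both, 12.9% against 12.6%. Without the highest cell of each age in each kind, no member was higher in both, against 1.96% of genes, and only Hnrnpd and Hnrnpm were lower in both, against 15.4%. Srsf9 then had log2 ratios of 0.92 in the rRNA-low and 0.57 in the rRNA-high stretches, and Srsf12 0.082 and -0.26. Srsf1 had -0.54 and -1.54, Hnrnpll -0.53 and -2.21.

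Hnrnpm was the only member whose 4 old stretch means all lay below its 4 young ones, which 1.74% of genes showed, and no member had them all above, which 0.446% showed. Without the highest cell of each stretch the same held for Hnrnpm, with 1.61% of genes below and 0.0101% above.

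**Figure D2:**
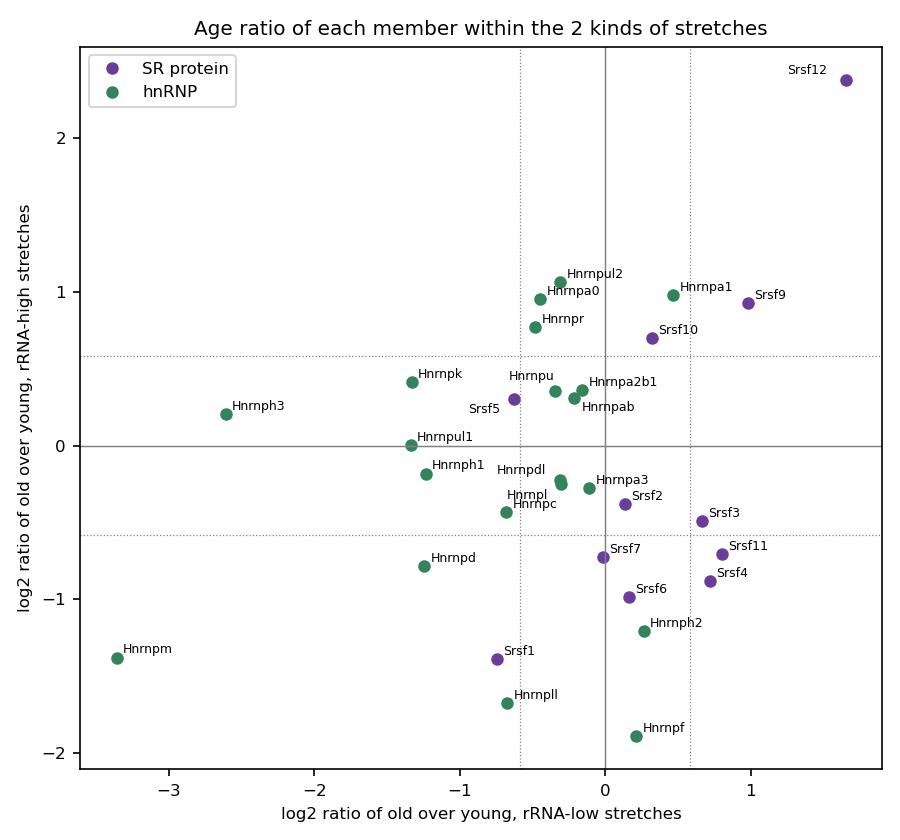
Log2 ratio of old over young of each member in the rRNA-low stretches (horizontal) and the rRNA-high stretches (vertical), SR proteins in purple and hnRNPs in green; dotted lines mark 1.5-fold. Hnrnpm lies at -3.36 and -1.38 in the lower left, Srsf9 at 0.98 and 0.93 in the upper right, and 17 members fall in the quadrants of opposite sign.

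Among the SR proteins, Srsf9 (chr5:115327163-115333843, GRCm38), a close relative of Srsf1, had the largest difference upward of the members with a mean of 10 TPM or above. Its values ran from 0 to 534 TPM with a median of 18.0 in young cells, and from 0 to 882 TPM with a median of 16.5 in old cells. It was detected in 73.9% of young and 72.5% of old cells, and 16 of 69 old and 13 of 138 young cells reached 100 TPM. The 2 kinds differed in this. In the rRNA-low stretches the median was higher in old cells, 23.6 against 5.71 TPM, with detection of 75.0% against 63.0%. In the rRNA-high ones it was lower, 11.2 against 27.6 TPM, with detection of 69.0% against 81.0%. The means were 38.2 ± 63.0 TPM at 3 months and 75.1 ± 148 TPM at 26 months, a log2 ratio of 0.96, with 0.98 in the rRNA-low stretches and 0.93 in the rRNA-high ones. By stretch they were 49.7, 8.02, 25.5 and 46.2 TPM in the 4 young stretches and 63.5, 84.2, 96.6 and 43.4 TPM in the 4 old ones. The stretches of the 2 ages overlapped, young cells 1 to 39 and 87 to 138 lying above old cells 200 to 207. Without the highest cell of each age the ratio was 0.85, and the old minus young mean of log2(TPM + 1) was 0.29.

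Srsf1, the founding SR protein, was lower in old cells. Its values ran from 0 to 310.0 TPM with a median of 2.69 in young cells, and from 0 to 86.0 TPM with a median of 1.24 in old cells. The means were 17.6 ± 40.9 TPM at 3 months and 8.85 ± 17.5 TPM at 26 months, a log2 ratio of -0.92, with -0.75 in the rRNA-low stretches and -1.39 in the rRNA-high ones. By stretch they were 26.6, 0.825, 19.6 and 14.6 TPM in the 4 young stretches and 5.35, 9.55, 6.36 and 17.6 TPM in the 4 old ones, and the ages overlapped, young cells 40 to 54 being the lowest of all. Detection was close, at 56.5% of young and 50.7% of old cells.

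Srsf2 (chr11:116849897-116853675), an SR protein that concentrates in nuclear speckles and regulates its own mRNA, followed the kind of stretch rather than the age. Its stretch means were 10.7 to 51.4 TPM in the 4 rRNA-low and 107 to 194 TPM in the 4 rRNA-high stretches, with no overlap. Cells of the young rRNA-high stretches ran from 0 to 1135 TPM with a median of 60.9, those of the young rRNA-low ones from 0 to 292 with a median of 1.1. In old cells the medians were 51.1 and 3.16 TPM. The log2 ratio of rRNA-high over rRNA-low means was 2.34 in young and 1.82 in old cells. Old cell 200, numbered among rRNA-low cells, had 152 TPM against a mean of 37.1 in cells 201 to 207. Srsf2 was detected in 88.1% of rRNA-high against 51.9% of rRNA-low young cells, and in 86.2% against 55.0% of old ones. The rRNA-high cells also had more genes detected, a mean of 4784 against 3537 in young and 4252 against 3715 in old cells. The part of this in the Srsf2 difference was not tested.

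Between the ages Srsf2 had means of 100.4 ± 186 TPM at 3 months and 65.3 ± 100.4 TPM at 26 months, a log2 ratio of -0.61, but of 0.13 in the rRNA-low stretches and -0.38 in the rRNA-high ones; without old cells 159 to 190 it was -0.015, and with cell 200 counted as rRNA-high the rRNA-low value was -0.012. The sum of 5 nuclear noncoding RNAs (Malat1, Neat1, Meg3, Snhg11 and Kcnq1ot1) had stretch means of 264 to 748 TPM in rRNA-low and 2441 to 4289.6 TPM in rRNA-high stretches, and its part in the Srsf2 difference was not tested. Across cells of a stretch, whose depths are unknown, the Spearman rho of Srsf2 with that sum was 0.093 to 0.355 in the 6 stretches of 15 or more cells, while its rho with the share of mitochondrial rRNA and tRNA, by which the kinds are named, ran from -0.287 to 0.447, below 0 in 3 of the 6. The gene beside it, Mettl23, shares 22.2% of the 50-base words of Srsf2 and was also higher in rRNA-high cells, 29.0 against 12.4 TPM at 3 months and 38.2 against 16.7 TPM at 26 months. Of the old stretches, cells 191 to 199 had 76.5 TPM of Mettl23, while the larger rRNA-high and rRNA-low stretches, cells 139 to 158 and 159 to 190, were close, at 20.9 and 19.0 TPM. Mfsd11, which overlaps Srsf2 on the other side, had in rRNA-high against rRNA-low cells 11.8 against 12.2 TPM at 3 months and 13.0 against 10.5 TPM at 26 months.

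**Figure D3:**
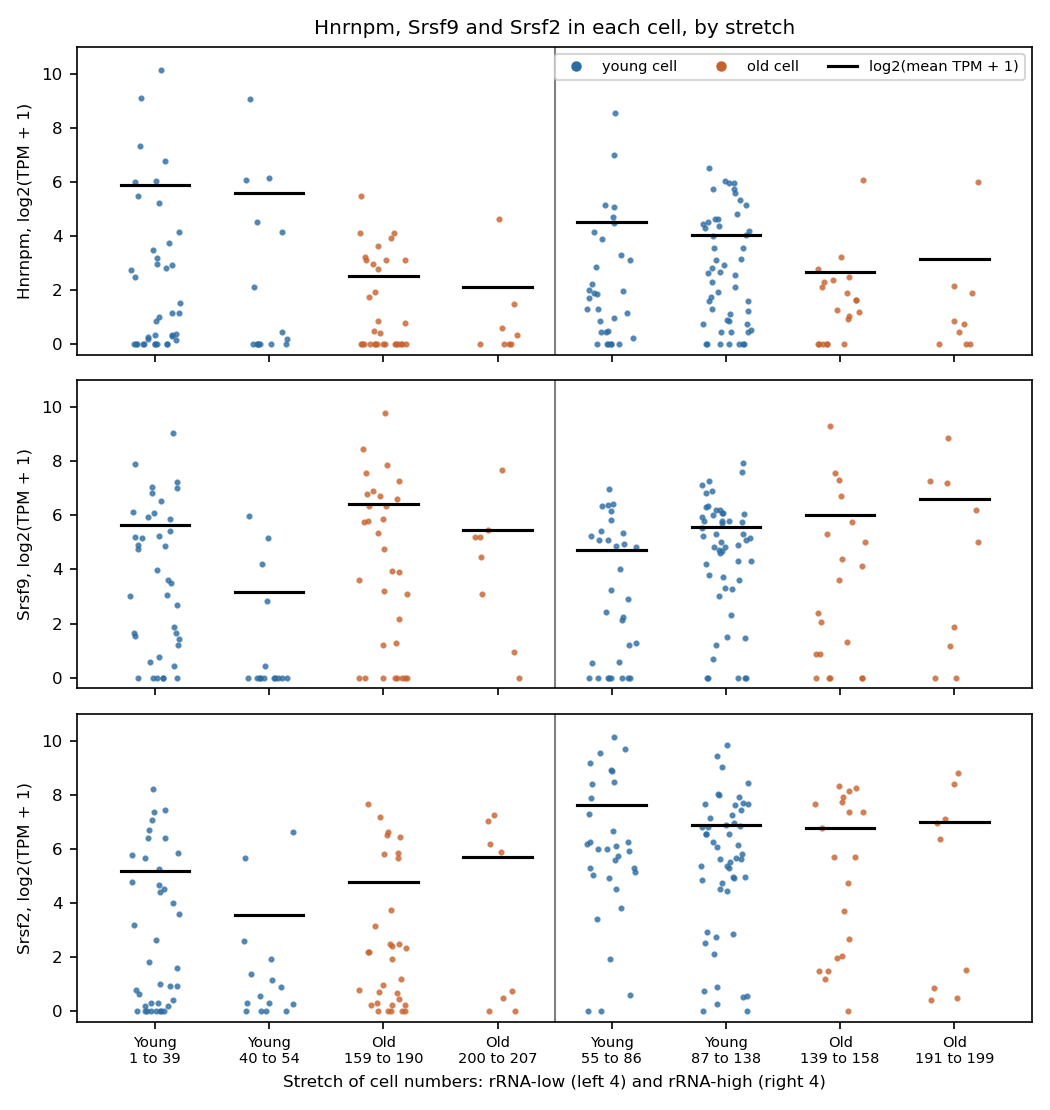
Hnrnpm, Srsf9 and Srsf2 in every cell as log2(TPM + 1), by stretch of cell numbers, with young cells in blue, old cells in orange and bars at log2 of the mean TPM plus 1. The Hnrnpm bars of old stretches (3.29 to 7.96 TPM) lie below all young ones (15.4 to 58.0), and those of Srsf2 lie higher in the 4 rRNA-high stretches on the right.

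The 3 most abundant SR mRNAs, Srsf7, Srsf5 and Srsf3, had age log2 ratios of -0.48, -0.16 and 0.051 by mean. Their SDs between cells exceeded their means at both ages. By median over all cells all 3 were lower in old cells, Srsf7 at 29.0 against 62.0 TPM, Srsf5 at 30.5 against 55.9 and Srsf3 at 43.3 against 58.7. Old minus young mean log2(TPM + 1) was -0.54, -0.45 and -0.54, a measure below 0 for 68.7% of genes compared. In the rRNA-low stretches the old median was higher for Srsf7, 19.2 against 5.31 TPM, and Srsf3, 43.1 against 39.7. That of Srsf5 was lower there, 35.4 against 43.7 TPM. In the rRNA-high stretches all 3 old medians were lower, Srsf7 at 52.2 against 100.2 TPM, Srsf5 at 29.0 against 67.8 and Srsf3 at 57.2 against 73.1. Srsf7 and Srsf3 are shuttling proteins that also serve as adapters for mRNA export. Srsf7 had means of 116 ± 143 TPM at 3 months and 83.0 ± 174 TPM at 26 months, a log2 ratio of -0.48. The ratio was -0.018 in the rRNA-low stretches and -0.73 in the rRNA-high ones. Its stretch means were 8.47 to 183 TPM over the young stretches and 49.8 to 96.1 TPM over the old ones, the low end being young cells 40 to 54. Srsf3 had means of 102 ± 127 TPM at 3 months and 105 ± 142 TPM at 26 months, a log2 ratio of 0.051, which was 0.66 in the rRNA-low stretches and -0.49 in the rRNA-high ones. Srsf5 had means of 107 ± 130.3 TPM at 3 months and 95.4 ± 131 TPM at 26 months, a log2 ratio of -0.16. The ratio was -0.63 in the rRNA-low stretches and 0.30 in the rRNA-high ones. Its stretch means were 51.2 to 133 TPM over the young stretches and 60.2 to 158 TPM over the old ones.

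Srsf6, a splicing regulator tied to survival and insulin secretion of beta cells, had means of 37.7 ± 58.8 TPM at 3 months and 32.5 ± 63.0 TPM at 26 months, a log2 ratio of -0.21. It was 0.17 in the rRNA-low stretches and -0.99 in the rRNA-high ones, or -0.13 and -0.33 with cell 200, which held 355 TPM, counted as rRNA-high, and its stretch means were 9.51 to 48.8 TPM over the young stretches and 17.7 to 54.5 TPM over the old ones. Srsf11, which contacts the U2AF factor, had means of 30.1 ± 47.6 TPM at 3 months and 26.4 ± 46.1 TPM at 26 months (log2 ratio -0.18, and 0.80 in the rRNA-low stretches and -0.71 in the rRNA-high ones). It was detected in 91.3% of young and 76.8% of old cells, the widest gap in detection among the SR proteins. Srsf10, which represses splicing when dephosphorylated, had means of 14.8 ± 28.9 TPM at 3 months and 20.3 ± 39.9 TPM at 26 months, a log2 ratio of 0.43, and stretch means of 0.995 to 19.1 TPM over the young stretches and 10.6 to 31.6 TPM over the old ones. The 2 SR mRNAs below 10 TPM were Srsf4, detected in 17.4% of young and 21.7% of old cells, and Srsf12, whose old mean of 4.0 TPM (young 0.274) came to 68.2% from 1 cell.

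The A/B group of hnRNPs, the core packaging proteins that often act against SR proteins, had age ratios from -0.17 to 0.71. Hnrnpa2b1 (chr6:51460434-51470048), detected in 100.0% of young and 97.1% of old cells, ran from 1.36 to 575 TPM with a median of 88.2 in young cells, and from 0.682 to 496 TPM with a median of 69.2 in old cells. Its means were 113 ± 95.1 TPM at 3 months and 115 ± 127 TPM at 26 months, a log2 ratio of 0.027, although its median was lower in old cells. By stretch it was 95.7, 59.1, 105 and 146 TPM in the 4 young stretches and 189.9, 55.2, 119.6 and 162 TPM in the 4 old ones; the old stretches spanned more than the young ones. It was higher in rRNA-high cells, by a log2 ratio of 0.60 in young and 1.12 in old cells.

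Hnrnpa1 (chr15:103239943-103246698), the classical antagonist of Srsf1, ran from 0 to 319 TPM with a median of 4.16 in young cells, and from 0 to 647 TPM with a median of 3.18 in old cells. In the rRNA-low stretches the median was higher in old cells, 2.63 against 0.761 TPM, with detection of 60.0% against 48.1%. In the rRNA-high ones it was lower, 4.75 against 7.54 TPM, with detection of 69.0% against 73.8%. The means were 26.4 ± 53.0 TPM at 3 months and 43.8 ± 103 TPM at 26 months, a log2 ratio of 0.71, which was 0.47 in the rRNA-low stretches and 0.98 in the rRNA-high ones and 0.51 without the highest cell of each age. By stretch they were 34.6, 7.12, 21.6 and 28.6 TPM in the 4 young stretches and 65.1, 39.6, 23.5 and 30.0 TPM in the 4 old ones, so that the ages overlapped. It was detected in 63.8% of young and 63.8% of old cells, and its reads may be shared with 19 other annotated genes. Hnrnpa0 had means of 15.8 ± 30.7 TPM at 3 months and 19.6 ± 45.2 TPM at 26 months (log2 ratio 0.29, but -0.45 in the rRNA-low stretches and 0.95 in the rRNA-high ones). Hnrnpa3 had means of 24.7 ± 51.4 TPM at 3 months and 21.9 ± 41.0 TPM at 26 months (log2 ratio -0.17) and Hnrnpab 29.5 ± 57.2 TPM at 3 months and 31.9 ± 56.8 TPM at 26 months (log2 ratio 0.11). Stretch means ran 9.57 to 51.6 TPM over the young stretches and 4.16 to 38.9 TPM over the old ones for Hnrnpab, 17.2 to 31.3 TPM over the young stretches and 4.59 to 27.1 TPM over the old ones for Hnrnpa3, and 1.2 to 24.7 TPM over the young stretches and 5.84 to 39.1 TPM over the old ones for Hnrnpa0.

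Hnrnpc, which binds uridine tracts and keeps cryptic exons out of mRNA, had means of 67.8 ± 105 TPM at 3 months and 42.3 ± 57.2 TPM at 26 months, a log2 ratio of -0.67, with -0.68 in the rRNA-low stretches and -0.43 in the rRNA-high ones. Its stretch means were 4.98 to 88.6 TPM over the young stretches and 27.4 to 66.9 TPM over the old ones, and it was higher in rRNA-high cells at both ages, by log2 ratios of 0.71 and 0.96. Hnrnpd, or AUF1, which directs decay of mRNAs with AU-rich elements, was low but lower in old cells in both kinds, 9.2 ± 16.2 TPM at 3 months and 3.99 ± 7.77 TPM at 26 months (log2 ratio -1.03). Its relative Hnrnpdl had means of 37.7 ± 57.2 TPM at 3 months and 30.2 ± 48.1 TPM at 26 months (log2 ratio -0.31) and stretch means of 34.1 to 47.7 TPM over the young stretches and 21.2 to 61.5 TPM over the old ones.

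The 4 members of the H/F group, which bind runs of guanosines, had age ratios from -0.98 to -0.51 over all cells. Hnrnph1, the most abundant of them, ran from 0 to 1078 TPM with a median of 60.8 in young cells, and from 0 to 763 TPM with a median of 22.7 in old cells. Its means were 117 ± 165 TPM at 3 months and 71.6 ± 126 TPM at 26 months, a log2 ratio of -0.70, with -1.23 in the rRNA-low stretches and -0.18 in the rRNA-high ones. By stretch they were 133, 46.0, 122 and 122 TPM in the 4 young stretches and 92.1, 47.4, 141 and 39.6 TPM in the 4 old ones. Old cells 191 to 199, 9 cells, had the highest mean through 1 cell at 763 TPM; without it the mean was 63.3 TPM, and their median of 5.36 TPM was the lowest of the 8 stretches.

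All 4 of the group depended on the stretches: Hnrnph1 and Hnrnph3 were 1.5-fold lower in old cells in the rRNA-low stretches only, Hnrnph2 and Hnrnpf in the rRNA-high ones only. Hnrnph2 had means of 43.9 ± 85.9 TPM at 3 months and 25.7 ± 75.6 TPM at 26 months and a log2 ratio of -0.75, which changed sign with the kind, at 0.26 in the rRNA-low stretches and -1.21 in the rRNA-high ones. Hnrnph3 showed the opposite, with means of 20.7 ± 55.3 TPM at 3 months and 9.98 ± 26.8 TPM at 26 months, a log2 ratio of -0.98, and -2.61 in the rRNA-low stretches and 0.21 in the rRNA-high ones. Its stretch means were 37.2, 3.91, 17.5 and 15.0 TPM in the 4 young stretches and 20.6, 0.914, 14.2 and 15.0 TPM in the 4 old ones; without old cells 159 to 190 the ratio was -0.20. Cell 200 held 103 TPM of Hnrnph3, and with it counted as rRNA-high the ratios were -3.72 and 0.40. Hnrnpf had means of 32.2 ± 56.6 TPM at 3 months and 22.3 ± 61.8 TPM at 26 months, a log2 ratio of -0.51, and ratios of 0.21 in the rRNA-low stretches and -1.89 in the rRNA-high ones. Cell 200 alone held 407 TPM of Hnrnpf, 26.5% of its old total, and with that cell counted as rRNA-high the ratios were -0.28 in rRNA-low and -0.65 in rRNA-high stretches. The stretch means of Hnrnph2 ran 9.03 to 67.8 TPM over the young stretches and 21.1 to 27.9 TPM over the old ones, those of Hnrnpf 23.3 to 42.9 TPM over the young stretches and 7.41 to 87.5 TPM over the old ones.

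Hnrnpk, a KH-domain protein that binds cytidine-rich RNA, ran from 0.137 to 564 TPM with a median of 66.1 in young cells, and from 0 to 484 TPM with a median of 50.9 in old cells. Its means were 111 ± 122 TPM at 3 months and 83.8 ± 100.2 TPM at 26 months, a log2 ratio of -0.40. The kinds of stretches went opposite ways, -1.33 in the rRNA-low stretches and 0.41 in the rRNA-high ones. By stretch they were 169, 63.1, 96.9 and 90.1 TPM in the 4 young stretches and 160.4, 45.5, 41.9 and 92.7 TPM in the 4 old ones; young cells 1 to 39 and old cells 139 to 158 stood above the rest. Hnrnpl, which binds CA repeats, had means of 28.9 ± 41.5 TPM at 3 months and 23.9 ± 31.6 TPM at 26 months (log2 ratio -0.27) with stretch means of 11.5 to 37.0 TPM over the young stretches and 14.2 to 26.5 TPM over the old ones. Its paralog Hnrnpll, known for CD45 splicing in T cells, was found in fewer cells, 30.4% of young and 33.3% of old cells. It had means of 21.7 ± 69.6 TPM at 3 months and 9.67 ± 27.9 TPM at 26 months (log2 ratio -1.09, with -0.67 in the rRNA-low stretches and -1.67 in the rRNA-high ones), and stretch means of 0.124 to 32.5 TPM over the young stretches and 0.424 to 14.8 TPM over the old ones.

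Hnrnpm (chr17:33646233-33685458), which binds GU-rich intronic sites and is known for splicing in epithelial-to-mesenchymal transition, had the largest age ratio of the members in either direction. Its values ran from 0 to 1144 TPM with a median of 2.67 in young cells, and from 0 to 67.0 TPM with a median of 0.731 in old cells. It reached 100 TPM in 7 of 138 young and 0 of 69 old cells. The means were 32.4 ± 121 TPM at 3 months and 5.21 ± 12.4 TPM at 26 months, a log2 ratio of -2.43, with -3.36 in the rRNA-low stretches and -1.38 in the rRNA-high ones. By stretch they were 58.0, 47.9, 21.8 and 15.4 TPM in the 4 young stretches and 5.44, 4.78, 7.96 and 3.29 TPM in the 4 old ones; every old mean lay below every young one.

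Part of the Hnrnpm mean came from few cells. Without the highest cell of each stretch the young means were 29.4, 12.8, 10.3 and 13.9 TPM and the old ones 2.2, 3.54, 0.995 and 0.363 TPM. By median and detection the stretches of the 2 ages overlapped: old cells 139 to 158 had a median of 1.76 TPM and detection of 65.0%, above young cells 1 to 39 (1.2 TPM, 53.8%) and 40 to 54 (0.157 TPM, 40.0%). The highest young cell held 25.6% of the young total, and without the highest cell of each age the ratio was -2.25. On the scale of mean log2(TPM + 1), which gives such cells less weight, old minus young was -1.07. Detection differed too, 84 of 138 young cells (60.9%, 95% Clopper-Pearson interval 52.2% to 69.1%) against 31 of 69 old cells (44.9%, 32.9% to 57.4%). The intervals cover the counting of cells only. With each age 1 sample, they cannot be used to compare the ages. Marchf2, named March2 in GENCODE, shares 28.8% of the 50-base words of Hnrnpm, and had 3.4 TPM at 3 months and 6.1 TPM at 26 months.

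Hnrnpu, or SAF-A, which binds chromatin-associated RNA and scaffold regions, had means of 84.7 ± 106 TPM at 3 months and 82.8 ± 104 TPM at 26 months, a log2 ratio of -0.033, with -0.35 in the rRNA-low stretches and 0.36 in the rRNA-high ones and stretch means of 37.0 to 107 TPM over the young stretches and 44.1 to 154 TPM over the old ones. The 4 hnRNP mRNAs below 10 TPM were Hnrnpr, Hnrnpd, Hnrnpul2 and Hnrnpul1. Over all 6 members below 10 TPM, Srsf4 and Srsf12 included, age ratios ran from -1.03 (Hnrnpd) to 1.97 (Srsf12). Hnrnpr, close kin of Syncrip, was higher in every rRNA-high stretch than in any rRNA-low one, 7.98 to 18.0 against 0.321 to 6.98 TPM.

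Across kinds of stretches, 4 of 31 members (Srsf2, Hnrnpa2b1, Hnrnpc and Hnrnpr) were at least 1.5-fold higher in rRNA-high than in rRNA-low cells at both ages, against 11.7% of genes compared, and none was at least 1.5-fold lower, against 10.8%. Srsf2 and Hnrnpr had all rRNA-high stretch means above all rRNA-low ones, which 3.21% of genes showed, and kept them without the highest cell of each stretch, against 3.26%; no member had them all below, which 0.944% showed. Of these, Srsf2 was by far the more abundant. Young cells 40 to 54 stood apart: they were the lowest young stretch by mean for 24 of 31 members and by detection for 26, as for 69.0% and 72.5% of genes compared, and had a median of 2320 detected genes.

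**Figure D4:**
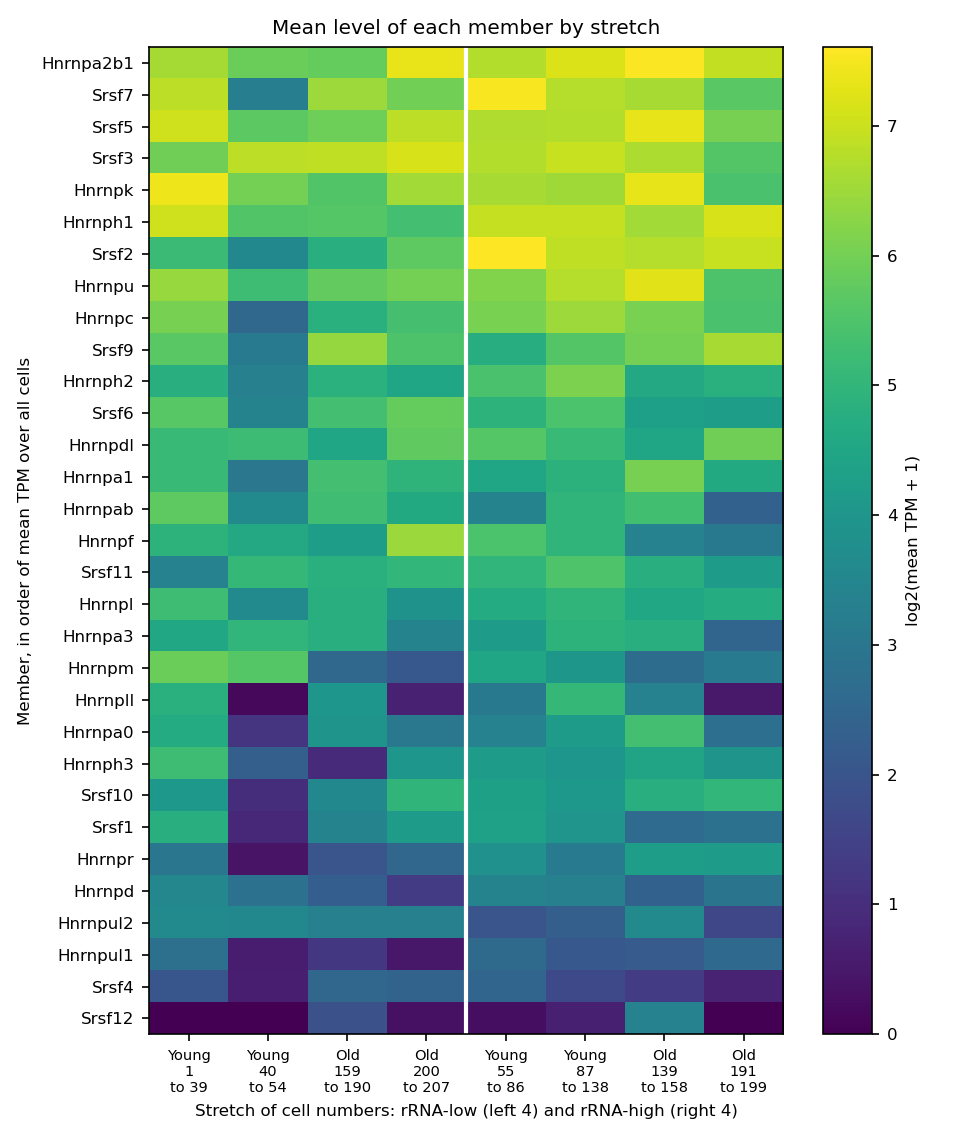
Mean level of each member as log2(mean TPM + 1) in the 8 stretches, rRNA-low on the left and rRNA-high on the right of the white line, members in order of mean TPM. The dark column is young cells 40 to 54, and the Srsf2 line is brighter on the right, 107 to 194 against 10.7 to 51.4 TPM.

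The share of cells with a member detected differed by a median of -2.90 percentage points between old and young, against -2.90 for all genes compared. It was smaller in old cells for 23 of 31 members, against 66.3% of genes, and larger for 5, against 28.1%; for 19 the shares lay within 5 points, as for 50.7%. The share was at least 10 points smaller for 3 members (Srsf11, Hnrnpm and Hnrnpul1), against 16.8% of genes compared, and at least 10 points larger for none, against 2.5%. Detection followed the number of genes found in a cell: the Spearman rho of members detected with genes detected was 0.5 to 0.863 within the 6 stretches of 15 or more cells. Depth is unknown, so absence of a member cannot be told from failed detection.

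Correlations between members from cell to cell were weak. Over the 465 pairs the Spearman rho, computed within the 6 stretches and averaged, had a median of 0.0572. It was 0.0155 among SR proteins and 0.0696 among hnRNPs. For pairs of all genes compared it was 0.0173, and with a mean of 10 TPM or above 0.0327 for genes and 0.0599 for members. The highest pair was Srsf6 with Hnrnpab, at 0.25 and from 0.11 to 0.48 over stretches, and the lowest was Srsf1 with Hnrnpc, at -0.21 and from -0.41 to -0.0076. Hnrnpa1 with Hnrnpu had 0.23, between 0.054 and 0.54, and 31 of the 465 pairs were above 0 in all 6 stretches, 6.67% against 1.62% of all gene pairs. With a mean of 10 TPM or above it was 20 of 300 pairs of members, against 3.4% of pairs of such genes. With the number of genes detected per cell held fixed, the median partial rank correlation of the 465 pairs was 0.0108. The same value for pairs of all genes was not computed, so this one has no background beside it. The summed SR and hnRNP levels correlated from -0.16 to 0.51 within stretches. With all cells pooled the median over pairs was 0.115, stretch differences then being included. In sparse values of this kind, such correlations describe these cells only.

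**Figure D5:**
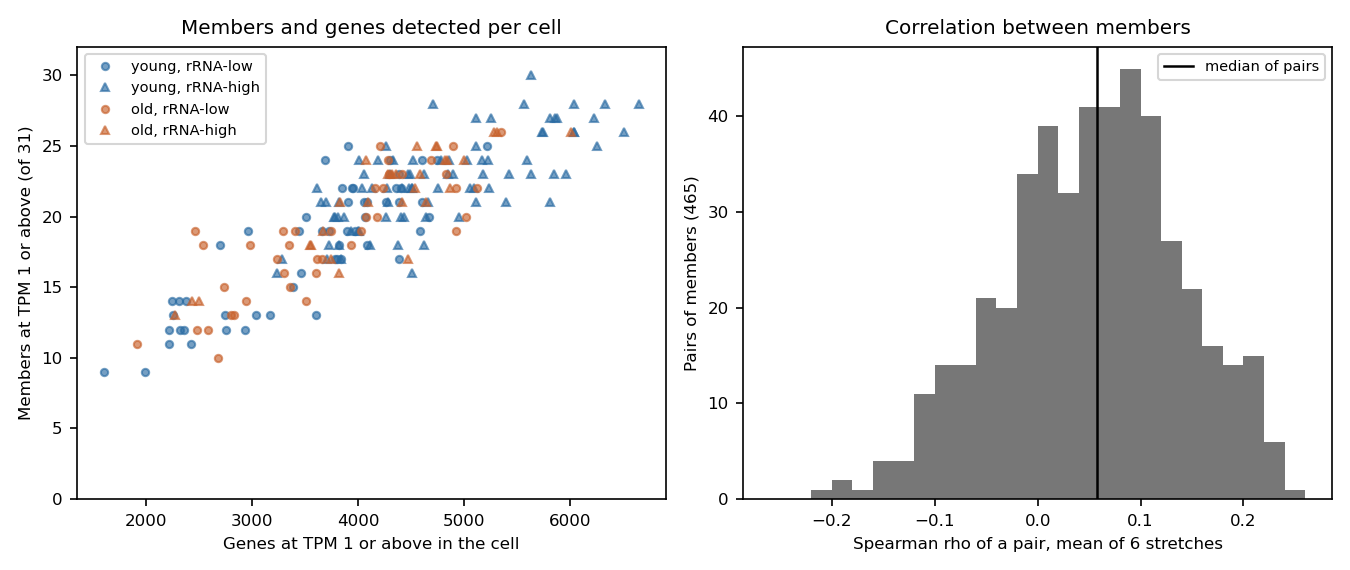
Left, members detected against all genes detected in each of the 207 cells, by age (blue young, orange old) and kind of stretch (circles rRNA-low, triangles rRNA-high); right, distribution of the mean within-stretch Spearman rho over the 465 pairs of members. Cells with more genes show more members, and the pairs centre on 0.0572.

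The genes whose levels ran most like the members' mean log2(TPM + 1), out of 3753 other protein-coding genes with a mean of 10 TPM or above, were Ptp4a2, Prdx1, Cycs, Hsp90ab1, Copa, Pcnp, Tuba1c and Tpd52. Their Spearman rho, averaged over the 6 stretches, was 0.367 to 0.405, against a median of 0.119 for such genes. The 8 were picked by this rho, so their place above the median was fixed in advance. In single stretches it ran from -0.113 (Cycs, young cells 55 to 86) to 0.758 (Prdx1, old cells 139 to 158). The count of detected genes had 0.653, more than any of the 8.

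The genes that work with the members were taken from 6 lists. Of 16 SR-related coactivators (Tra2, SR matrix proteins, Son and others), 0 were at least 1.5-fold higher in old cells and 3 lower (Tra2a, Rbm25 and Pnn), with a median log2 ratio of -0.19. Tra2a, which binds GAA enhancers, had 21.1 ± 82.5 TPM at 3 and 9.75 ± 24.8 TPM at 26 months (log2 ratio -1.04), and Rbm25 43.8 ± 79.5 TPM at 3 and 28.7 ± 60.6 TPM at 26 months (log2 ratio -0.60). At the other end Luc7l, a U1 snRNP protein, had 10.1 ± 25.2 TPM at 3 and 11.1 ± 24.6 TPM at 26 months (log2 ratio 0.12) and Rbm39 49.3 ± 43.2 TPM at 3 and 53.5 ± 80.4 TPM at 26 months (log2 ratio 0.12). Of 13 measured SR protein kinases and phosphatases, 0 were higher and 3 lower (Clk1, Clk2 and Ppp1r8; median -0.27). Clk1, which phosphorylates SR proteins in the nucleus, had 186 ± 348 TPM at 3 and 105 ± 198 TPM at 26 months (log2 ratio -0.82), which was -1.77 in rRNA-low and -0.13 in rRNA-high stretches. Clk4 had 58.5 ± 115 TPM at 3 and 43.3 ± 83.6 TPM at 26 months (log2 ratio -0.42), Srpk2, a cytoplasmic SR protein kinase, 17.7 ± 31.7 TPM at 3 and 22.3 ± 46.1 TPM at 26 months (log2 ratio 0.31), and the phosphatase subunit Ppp1cc 16.2 ± 40.5 TPM at 3 and 19.8 ± 61.2 TPM at 26 months (log2 ratio 0.27).

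Of 16 measured hnRNP family members under other symbols, 0 were higher and 3 lower (Celf1, Rbmx and Taf15), with a median of -0.03. Celf1, a regulator of splicing and mRNA decay, had 12.6 ± 27.7 TPM at 3 and 5.76 ± 11.4 TPM at 26 months (log2 ratio -1.01) and Rbmx, hnRNP G, 12.2 ± 34.2 TPM at 3 and 6.4 ± 13.9 TPM at 26 months (log2 ratio -0.83). Ptbp1, which binds pyrimidine tracts and stabilises insulin mRNA, had 13.8 ± 43.3 TPM at 3 and 16.4 ± 51.0 TPM at 26 months (log2 ratio 0.23), but ratios of -0.11 in rRNA-low and -0.21 in rRNA-high stretches, and Elavl1 10.6 ± 28.0 TPM at 3 and 11.9 ± 25.8 TPM at 26 months (log2 ratio 0.16). Of 37 measured core spliceosome genes, 1 was higher (Snrnp70) and 7 lower (median -0.11). Snrnp70, the U1 protein contacted by SR proteins, had 8.74 ± 11.0 TPM at 3 and 14.9 ± 36.6 TPM at 26 months (log2 ratio 0.71). Prpf8, at the catalytic centre, had 13.6 ± 28.6 TPM at 3 and 20.8 ± 43.2 TPM at 26 months (log2 ratio 0.58), Prpf6 18.4 ± 60.0 TPM at 3 and 7.84 ± 19.1 TPM at 26 months (log2 ratio -1.14) and Sf3a3 20.5 ± 58.5 TPM at 3 and 11.5 ± 50.6 TPM at 26 months (log2 ratio -0.78).

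Of 15 exon junction complex and nonsense-mediated decay genes, 1 was higher (Casc3) and 3 lower (Magoh, Upf3a and Smg8; median 0.17). Casc3, a junction complex subunit, had 8.58 ± 31.0 TPM at 3 and 15.7 ± 48.8 TPM at 26 months (log2 ratio 0.80) and Magohb 9.76 ± 39.9 TPM at 3 and 13.5 ± 65.6 TPM at 26 months (log2 ratio 0.43), while its near-identical paralog Magoh, whose reads it may share, had 65.5 ± 118 TPM at 3 and 37.7 ± 97.5 TPM at 26 months (log2 ratio -0.78) and the decay factor Upf3b 46.9 ± 63.5 TPM at 3 and 36.0 ± 70.5 TPM at 26 months (log2 ratio -0.37). Of 11 measured neuroendocrine splicing regulators, 1 was higher (Khdrbs1) and 2 lower (Elavl4 and Esrp2; median 0.086). Elavl4, a neuronal and beta cell RNA-binding protein, had 12.0 ± 30.1 TPM at 3 and 6.24 ± 13.5 TPM at 26 months (log2 ratio -0.84), Mbnl1 18.9 ± 30.4 TPM at 3 and 13.5 ± 30.5 TPM at 26 months (log2 ratio -0.46), Esrp1, an epithelial splicing factor, 18.2 ± 31.7 TPM at 3 and 23.6 ± 44.5 TPM at 26 months (log2 ratio 0.35) and Mbnl2 38.5 ± 64.9 TPM at 3 and 43.8 ± 77.9 TPM at 26 months (log2 ratio 0.18). Those of the genes in parentheses that have no values here were named for their count after their values had been seen. The ratios of 10 of the 24 genes given with values (Luc7l, Srpk2, Clk4, Ppp1cc, Rbmx, Sf3a3, Prpf8, Magohb, Upf3b and Mbnl2) had opposite signs in the 2 kinds of stretches. In all 24 genes given with values the SD between cells of either age was larger than the difference of the means. With SDs mostly above the means this is nearly fixed in advance and says little about the ages. The counts stand beside 15.7% higher and 28.4% lower among all genes compared.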

How the data were processed

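Islet cells were captured on a C1 chip, with SMARTer cDNA and Nextera XT libraries, per the labels' protocols. The submitters' processing notes name GRCm38 (mm10), CASAVA 1.8.2 and FastQC; aligner, counter, annotation and strand were not given in the sources used here. TPM per gene and cell was deposited by the authors in 1 table, whose columns were matched to samples by title (0 unused). Rows are NCBI Gene numbers, of which 39725 of 44448 matched a RefSeq symbol (GRCm38.p6).

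Each member's value is the mean TPM per age or stretch, its ratio log2((old mean + 1)/(young mean + 1)), and its detection at 1 TPM or above; genes compared have a mean of 1 TPM or above (9855 protein-coding). Counts at 1.5-fold describe size. Correlations were computed within stretches of at least 15 cells. No cell was left out and no doublet caller was run. Members with a mean of 10 TPM or above are described singly, those on which a result turns in all stretches and the others by the range over stretches; of each list, the 2 highest and 2 lowest ratios among such genes are given. Members, lists and stretches were chosen with earlier results of these data known. The ratio and correlation scripts were tested on simulated data. The analysis used Python 3.11.15, NumPy 2.4.6, pandas 2.3.3, SciPy 1.17.1 and matplotlib 3.10.9.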

Additional observations from a re-analysis of the deposited data

How the results depend on the processing

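Sizes, not tests, are compared, and a median or summed log2 ratio counts as moved past 0.2, a median rho past 0.05 and a count past 1.5 times; 30 of 99 such values moved. On the scale of mean log2(TPM+1) the SR median was -0.45 and the hnRNP sum -0.53, and 0 members were 1.5-fold higher and 6 lower. On that scale 23 of 31 members were below 0, against 68.7% of genes compared. Counts at 1.5-fold under the alternatives cover the members only. They have no share of all genes beside them, except in the 2 kinds of stretches, where it is given above. In rRNA-low cells the SR median was 0.32, the SR sum 0.20 and the hnRNP sum -0.64, with 5 members higher; in rRNA-high cells the SR median was -0.49, the hnRNP median -0.091 and the hnRNP sum 0.023, with 7 higher. With cell 200 counted as rRNA-high, a choice made after seeing the data, the rRNA-low values were 0.33, 0.15, -0.71 and 5, the rRNA-high ones -0.36, -0.097, 0.052 and 7. Leaving out the highest cell of each age within a kind, also chosen after seeing the data, gave an SR median of 0.19, an SR sum of 0.15 and an hnRNP sum of -0.68 in rRNA-low cells, and an SR median of -0.61 and an hnRNP sum of 0.010 in rRNA-high ones, with Srsf2 at 0.19 in rRNA-low and Srsf12 at -0.26 and Hnrnph3 at 0.035 in rRNA-high cells. Stretches weighted equally left 4 members lower. Without old cells 159 to 190, 5 were higher and 5 lower, and the hnRNP sum was -0.019. Pooling all cells gave a median rho of 0.115. Ratios changed sign for Srsf2 (0.13) and Hnrnph2 (0.26, and 0.30 with cell 200 moved) in rRNA-low cells and for Hnrnph3 (0.21, and 0.40 with cell 200 moved) and Hnrnpul1 (0.0016) in rRNA-high cells. How many of all genes would pass every alternative was not computed. Of the 13 members at 1.5-fold, 8 kept their sign under every alternative run. Hnrnpm, with the largest ratio of the members, alone kept the 1.5-fold size in all of them. The cause was not tested. No paired analysis was possible because the cells carry no number shared between the ages. TPM holds no depth, so the precision of a single value is unknown.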
